A study of Mus musculus with 8 samples.

Results

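Purinergic receptors and the ectoenzymes that supply or remove their ligands were described in mast cells (MC) sorted from tumors and from the peritoneal cavity. The set was a list of 10 genes: the P2Y receptors P2ry1, P2ry12, P2ry13 and P2ry14, the P2X channels P2rx1, P2rx4 and P2rx7, the adenosine receptor Adora3, and the ectoenzymes Entpd1 and Nt5e. A gene was taken where a transcript cluster of the array, the probes summarised as 1 transcript unit, carried that symbol and no other. Where several clusters did, the one with the highest mean over the 8 arrays was to be chosen by that mean, which no member needed. This gave 9 of the 10 genes, each with 1 cluster, among 21320 genes with a symbol of their own and 24111 clusters in all. No cluster carried Entpd1 alone as its symbol, and this gene was not analysed here.

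Arrays of 4 groups, 2 in each, were compared, which were tumor MC after DC101, tumor MC after placebo, peritoneal MC after DC101 and peritoneal MC after placebo. All animals were C57BL/6J mice with subcutaneous tumors of Panc02, a mouse pancreatic cancer line, and were randomized once tumors had reached 100 mm3. DC101, an antibody against the VEGF receptor VEGFR2, was given at 40 mg/kg. The sources used here give no age of the animals. Peritoneal MC were obtained by lavage of the same kind of tumor-bearing mice, so neither compartment came from a tumor-free animal. Cells were sorted on DAPI, CD45, CD11b, CD117 (the receptor KIT) and the IgE receptor FcεRI. It is not stated whether the arrays of a group came from separate mice. The p-values therefore measure the spread between these arrays, which may be technical, and the number of arrays limits the precision.

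Extracellular ATP and ADP leave stressed or degranulating cells and act on P2X channels, which ATP opens, and on P2Y receptors, which couple to G proteins. Ectoenzymes then shorten the nucleotides in steps: CD39, the product of Entpd1, degrades ATP and ADP to AMP, and CD73, the product of Nt5e, turns AMP into adenosine. MC answer both to ATP, which can trigger degranulation, and to adenosine, which in rodents acts through the A3 receptor encoded by Adora3.

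P2ry14, P2ry13 and P2ry12 lie next to one another on chromosome 3, all inside the span of Med12l, and P2rx7 and P2rx4 are neighbours on chromosome 5. The 250 bases before the outermost RefSeq start of 4 members are shown because the results below turn on these genes: P2ry14 and P2rx7 for their difference between compartments, and the linked pair P2ry13 and P2ry12 for their values after DC101 in tumor MC. Capitals mark letters known from binding sites of GATA factors, AGATAA, of PU.1 and other ETS factors, GAGGAA, and of E-box factors, CACGTG. Both strands were searched, and TTATCT is the first of these read on the other strand. The sequences come from the RefSeq promoter table of GRCm38.p6, in which all 9 measured members had an entry. They run 5′ to 3′ on the strand of the gene, which is the minus strand for P2ry14, P2ry13 and P2ry12 and the plus strand for P2rx7. The windows are chr3:59153493-59153742 (P2ry14), chr3:59210883-59211132 (P2ry13), chr3:59262986-59263235 (P2ry12) and chr5:122643677-122643926 (P2rx7).
P2ry14: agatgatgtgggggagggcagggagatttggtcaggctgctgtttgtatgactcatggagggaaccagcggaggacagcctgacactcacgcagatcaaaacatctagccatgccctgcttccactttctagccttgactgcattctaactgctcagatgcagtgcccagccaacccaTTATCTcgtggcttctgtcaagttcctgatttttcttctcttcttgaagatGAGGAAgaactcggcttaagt
P2ry13: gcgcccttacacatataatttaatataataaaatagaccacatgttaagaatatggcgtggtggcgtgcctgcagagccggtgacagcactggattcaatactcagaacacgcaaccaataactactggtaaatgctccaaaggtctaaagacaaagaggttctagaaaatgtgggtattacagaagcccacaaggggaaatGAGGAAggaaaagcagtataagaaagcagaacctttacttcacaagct
P2ry12: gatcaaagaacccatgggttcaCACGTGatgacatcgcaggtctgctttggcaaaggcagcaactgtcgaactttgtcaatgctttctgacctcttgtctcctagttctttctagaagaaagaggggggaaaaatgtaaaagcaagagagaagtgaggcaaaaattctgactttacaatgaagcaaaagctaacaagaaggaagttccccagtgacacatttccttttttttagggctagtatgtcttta
P2rx7: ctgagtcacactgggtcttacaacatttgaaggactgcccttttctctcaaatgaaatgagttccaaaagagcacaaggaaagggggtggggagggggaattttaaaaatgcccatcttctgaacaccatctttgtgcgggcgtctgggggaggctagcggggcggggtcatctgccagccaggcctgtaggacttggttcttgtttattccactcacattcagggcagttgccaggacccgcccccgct
The P2ry14 window held AGATAA on the other strand at 72 to 67 bases and GAGGAA at 21 to 16 bases before the start. The P2ry13 window held GAGGAA at 48 to 43 bases, and the P2ry12 window held CACGTG at 228 to 223 bases. The P2rx7 window shown held none of these letters, but another P2rx7 window, not shown, held AGATAA on the other strand at 58 to 53 bases. Over the 13 windows of the 9 members, some of which overlap, AGATAA was in 4, GAGGAA in 6 and CACGTG in 1. By gene, AGATAA was found for 3 of the 9 members, GAGGAA for 3 and CACGTG for 1. P2ry14 had several windows, all with GAGGAA, and overlapping ones counted the same site again. The window counts are therefore not independent of one another. Of 32851 windows of the same length in the table, 9.99% held AGATAA, 23.3% GAGGAA and 6.02% CACGTG. A match describes the letters only and is not a measured binding site.

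Expression values are on the log2 scale, as the authors made them with RMA. A difference of 1 is a doubling. RMA levels cannot be compared between genes, and a dim gene may be at background. The median cluster was at 3.48, and all 9 members lay above it in their mean over the arrays. One limma model per cluster took in the 8 arrays with a mean for each group, and rose, fell and changed are used only at a Benjamini-Hochberg adjusted p under 0.05 over the 24111 clusters. Array medians lay between 3.34 and 3.46, and the arrays of a group correlated at 0.974 to 0.986 across clusters. The 10 MC markers averaged between 9.0 and 9.90 on every array, and Cpa3, the carboxypeptidase of MC granules, was between 11.13 and 11.72. The labelled cell type was therefore present on all arrays. Markers of other cells were also present and differed between groups, above all in the peritoneal samples. In bulk RNA of this kind, fewer cells of a type and less RNA per cell cannot be told apart.

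**Figure D1:**
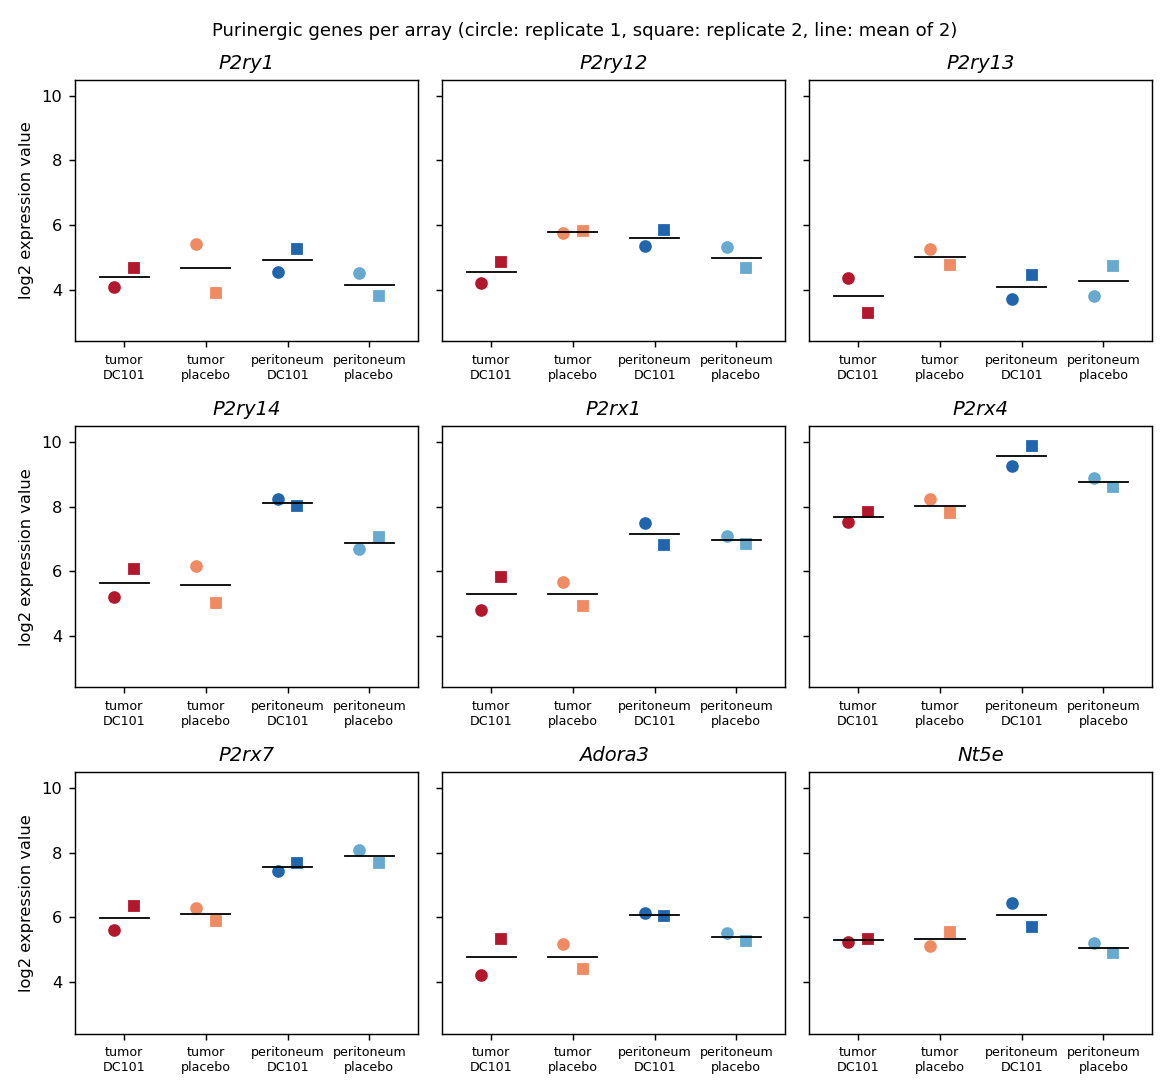
Log2 expression value (vertical axis) of the 9 measured purinergic genes on each array, by group (horizontal axis), with circles for replicate 1, squares for replicate 2 and a line at the mean of both arrays. P2ry14, P2rx1, P2rx4 and P2rx7 lie lower on all 4 tumor arrays than on all 4 peritoneal arrays.

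The clearest pattern of the set was a lower level in tumor MC than in peritoneal MC, above all after DC101. Members were chosen with earlier results of these data known. The shares over all clusters beside them are therefore a description and not a test of the set. After DC101, 6 of the 9 members fell in tumor relative to peritoneal MC, namely P2ry12, P2ry14, P2rx1, P2rx4, P2rx7 and Adora3, and 0 rose. In this comparison 9.54% of all clusters were called lower and 12.4% higher. After placebo, 2 of 9 members fell, P2rx1 and P2rx7, and 0 rose, against 8.29% of all clusters called lower and 11.3% called higher. Among the 12055 clusters above the median cluster, a set closer to the members in signal, 16.2% were called lower and 21.9% higher after DC101, and 13.3% lower and 19.7% higher after placebo. The median log2 difference of the 9 members was −1.31 after DC101 and −0.62 after placebo, beside −0.03 and −0.01 over all clusters. All 9 differences were negative after DC101, whereas 5 were negative and 4 positive after placebo. After DC101, 7 members had both tumor arrays below both peritoneal arrays, as had 30% of all clusters. After placebo, 5 members lay below in this way and 2 above, beside 28.3% and 28.6% of all clusters.

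P2ry14, the receptor for UDP-glucose and related UDP-sugars, had the largest difference of the set. Its values were 5.19 and 6.06 in tumor MC after DC101, 6.15 and 5.02 in tumor MC after placebo, 8.23 and 8.03 in peritoneal MC after DC101, and 6.67 and 7.07 in peritoneal MC after placebo. All 4 tumor arrays lay below all 4 peritoneal arrays, and both peritoneal arrays after DC101 lay above both after placebo. P2ry14 fell in tumor MC against peritoneal MC after DC101, by 2.50 ± 0.40 on the log2 scale (SE, 2 arrays per group, limma adjusted p = 0.0018), which is a 5.65-fold lower value. After placebo the difference was −1.29 ± 0.40 (95% interval −2.18 to −0.39, adjusted p = 0.051) and just missed the threshold. It was called under 8 of the 16 alternative settings and depended on the tumor placebo pair, with −1.85 without replicate 1 (adjusted p = 0.0148) and −0.73 without replicate 2 (adjusted p = 0.3). From low to high, the group means ran from tumor placebo (5.59 ± 0.79) and tumor DC101 (5.63 ± 0.62) through peritoneal placebo (6.87 ± 0.28) to peritoneal DC101 (8.13 ± 0.14, SD, n = 2 arrays each). The tumor groups did not differ beyond their spread.

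P2rx7, the ATP channel that needs high ATP and leads to pore formation and inflammasome activity, had 5.61 and 6.35 in tumor MC after DC101 and 6.30 and 5.90 in tumor MC after placebo. Peritoneal MC had 7.44 and 7.67 after DC101 and 8.09 and 7.70 after placebo. The compartments did not overlap, while the treatments differed by little within each. P2rx7 fell in tumor MC against peritoneal MC by 1.57 ± 0.29 after DC101 (adjusted p = 0.00406) and by 1.79 ± 0.29 after placebo (adjusted p = 0.00231). Both calls held under 15 of 16 alternatives each and were lost without moderation of the spread (adjusted p = 0.0613 and 0.0523). The order was tumor DC101, tumor placebo, peritoneal DC101 and peritoneal placebo, with only the step between the compartments larger than the spread of the arrays.

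P2rx1, a fast ATP channel also known from platelets and smooth muscle, showed the same order of compartments. Its values were 4.79 and 5.83 (tumor DC101), 5.67 and 4.93 (tumor placebo), 7.50 and 6.80 (peritoneal DC101) and 7.08 and 6.85 (peritoneal placebo). Every tumor array lay below every peritoneal array, with differences of −1.84 ± 0.39 after DC101 (adjusted p = 0.00868) and −1.66 ± 0.39 after placebo (adjusted p = 0.0162). The call after DC101 was lost without tumor DC101 replicate 1 (−1.32, adjusted p = 0.0719) or without peritoneal DC101 replicate 1 (−1.49, adjusted p = 0.0676). The call after placebo was lost without tumor placebo replicate 2 (−1.29, adjusted p = 0.114) and without either peritoneal placebo array (adjusted p = 0.0842 and 0.0576).

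P2rx4, an ATP channel of the plasma membrane and lysosomes, had 7.53 and 7.83 in tumor MC after DC101, 8.23 and 7.79 in tumor MC after placebo, 9.26 and 9.89 in peritoneal MC after DC101, and 8.89 and 8.62 in peritoneal MC after placebo. The tumor arrays again lay below all peritoneal arrays. P2rx4 fell in tumor MC against peritoneal MC after DC101, by 1.90 ± 0.27 (adjusted p = 0.000999), and kept this call under all 16 alternatives run. After placebo the difference was −0.74 ± 0.27 (95% interval −1.35 to −0.13, adjusted p = 0.0949). The low-to-high order was tumor DC101 (7.68 ± 0.21), tumor placebo (8.01 ± 0.31), peritoneal placebo (8.75 ± 0.19) and peritoneal DC101 (9.58 ± 0.44). The tumor groups overlapped.

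Adora3, the A3 adenosine receptor, had 4.22 and 5.34 in tumor MC after DC101 against 6.13 and 6.06 in peritoneal MC after DC101. It had 5.17 and 4.41 in tumor MC after placebo against 5.53 and 5.28 in peritoneal MC after placebo. The peritoneal arrays were above the tumor arrays in both conditions, by a small margin after placebo. Adora3 fell in tumor MC after DC101 (−1.31 ± 0.37, adjusted p = 0.0341), whereas the placebo difference was −0.62 ± 0.37 (95% interval −1.46 to 0.23, adjusted p = 0.318). The DC101 call was lost without tumor DC101 replicate 1 (−0.75, adjusted p = 0.23) and without either peritoneal DC101 array (adjusted p = 0.129 and 0.101). The tumor groups had nearly the same mean, 4.78 ± 0.79 after DC101 and 4.79 ± 0.54 after placebo.

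Nt5e, which encodes the adenosine-forming enzyme CD73, did not pass the test between compartments. It had 5.25 and 5.34 in tumor MC after DC101, 5.11 and 5.54 in tumor MC after placebo, 6.46 and 5.71 in peritoneal MC after DC101, and 5.20 and 4.90 in peritoneal MC after placebo. The peritoneal arrays after DC101 stood above the rest. Tumor placebo overlapped both other groups, and tumor DC101 lay just above peritoneal placebo. Tumor against peritoneal MC gave −0.79 ± 0.28 after DC101 (adjusted p = 0.0796) and 0.27 ± 0.28 after placebo (adjusted p = 0.582). The first difference rested on the peritoneal DC101 pair. Without replicate 2, the lower array, it was −1.16 and passed (adjusted p = 0.0229), and without replicate 1 it was −0.42 (adjusted p = 0.395). It also passed when only clusters above the median were tested (adjusted p = 0.0491).

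**Figure D2:**
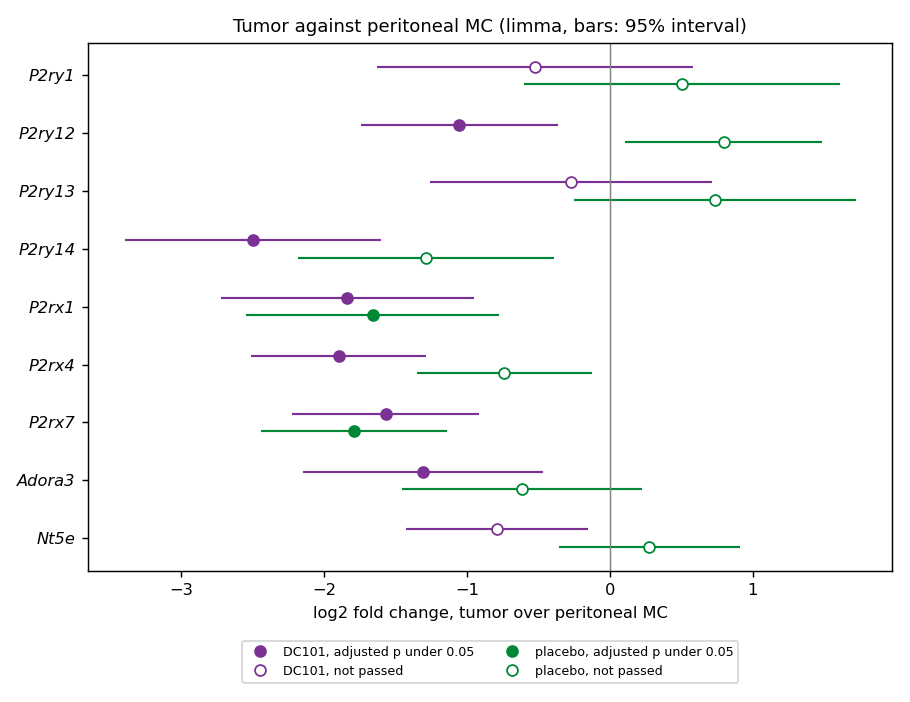
Log2 fold change of tumor over peritoneal MC (horizontal axis) for each member after DC101 (purple) and after placebo (green), with 95% intervals from limma and filled symbols at an adjusted p under 0.05. After DC101 all 9 values are negative and 6 are filled, and after placebo 5 are negative and only P2rx1 and P2rx7 are filled.

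The 3 ADP receptors had higher means in tumor than in peritoneal MC after placebo, and none of these differences passed. P2ry12, the Gi-coupled ADP receptor that is the target of clopidogrel on platelets, had 4.21 and 4.86 in tumor MC after DC101 and 5.74 and 5.81 in tumor MC after placebo. In peritoneal MC it had 5.34 and 5.84 after DC101 and 5.31 and 4.66 after placebo. The tumor placebo arrays were above the peritoneal placebo arrays, and the tumor DC101 arrays were below the peritoneal DC101 arrays. The compartment difference was −1.05 ± 0.31 after DC101 (adjusted p = 0.0369) and 0.79 ± 0.31 after placebo (adjusted p = 0.11). The DC101 call was lost without tumor DC101 replicate 1 (−0.73, adjusted p = 0.247), without peritoneal DC101 replicate 2 (−0.80, adjusted p = 0.185) and without either tumor placebo array (adjusted p = 0.0539 each), and with the replicate number as a block (adjusted p = 0.0523).

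P2ry13, a related ADP receptor, had 4.35 and 3.27 in tumor MC after DC101, 5.25 and 4.75 in tumor MC after placebo, 3.72 and 4.44 in peritoneal MC after DC101, and 3.79 and 4.74 in peritoneal MC after placebo. Both tumor placebo arrays lay above all other arrays, the nearest of which was at 4.74. The compartment differences were −0.27 ± 0.44 after DC101 (adjusted p = 0.748) and 0.73 ± 0.44 after placebo (adjusted p = 0.309). P2ry1, the Gq-coupled ADP receptor, ranged from 3.79 to 5.41 over the 8 arrays, and its tumor placebo arrays alone lay at 5.41 and 3.89. No order of its groups exceeded that spread, with compartment differences of −0.53 ± 0.49 after DC101 and 0.50 ± 0.49 after placebo (adjusted p = 0.533 and 0.559).

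The response to DC101 was tested next within each compartment. In tumor MC, 0 of 9 members and 0% of all clusters passed the adjusted p of limma, 2 members and 1215 clusters had an unadjusted p under 0.05, and the nested F-test of limma called 0 members and 20 clusters (0.0829%). In peritoneal MC, 0 of 9 members passed, while 2.48% of all clusters rose and 2.1% fell. Of the members, 3 had an unadjusted p under 0.05 there, beside 4558 of all 24111 clusters. The nested F-test again called 0 members and 2.14% of all clusters. The thresholds of the study (F-test p under 0.05, fold change of at least 1 on the log2 scale) were also applied with unadjusted p and either direction. They held for 2 members in tumor MC, both lower after DC101 (0.299% of all clusters lower, 0.382% higher), and for 2 in peritoneal MC, both higher (3.07% higher, 2.81% lower). These genes are given with their values and are not called changed.

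The members past the study's thresholds in tumor MC were the neighbours P2ry12 and P2ry13. P2ry12 averaged 4.53 ± 0.46 after DC101 and 5.78 ± 0.05 after placebo in tumor MC (SD, n = 2 arrays each). The log2 fold change was −1.24 ± 0.31 (95% interval −1.94 to −0.55, unadjusted p = 0.00283, adjusted p = 0.839). P2ry13 averaged 3.81 ± 0.76 after DC101 and 5.0 ± 0.35 after placebo, with a log2 fold change of −1.19 ± 0.44 (95% interval −2.18 to −0.21, unadjusted p = 0.0231, adjusted p = 0.966). For both genes the DC101 arrays lay below both placebo arrays, as was the case for 20.6% of all clusters. With 1 array left out, the number of members at these thresholds was between 1 and 3. It was 1 without either tumor DC101 array or without tumor placebo replicate 1, and 3 without tumor placebo replicate 2. The other 7 members had log2 fold changes between −0.34 (P2rx4) and 0.04 (P2ry14) in tumor MC, with overlapping arrays and an adjusted p of 1 in rounded form.

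In peritoneal MC, P2ry14 averaged 8.13 ± 0.14 after DC101 and 6.87 ± 0.28 after placebo, a log2 fold change of 1.25 ± 0.40 (95% interval 0.36 to 2.15, unadjusted p = 0.0115, adjusted p = 0.119). Nt5e averaged 6.08 ± 0.52 after DC101 and 5.05 ± 0.21 after placebo, a log2 fold change of 1.03 ± 0.28 (95% interval 0.40 to 1.67, unadjusted p = 0.00515, adjusted p = 0.0755). These were the members past the study's thresholds there. Nt5e passed without peritoneal DC101 replicate 2 (1.40, adjusted p = 0.0455) but not without replicate 1 (0.66, adjusted p = 0.286). It passed when only clusters above the median were tested (adjusted p = 0.0472). P2rx4 had a log2 fold change of 0.82 ± 0.27 (95% interval 0.21 to 1.44, unadjusted p = 0.0143, adjusted p = 0.135). In all, the DC101 arrays lay above both placebo arrays for 6 members in peritoneal MC, P2ry1, P2ry12, P2ry14, P2rx4, Adora3 and Nt5e, and below them for P2rx7. Over all clusters, 21.5% lay above in this way and 24.6% below.

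**Figure D3:**
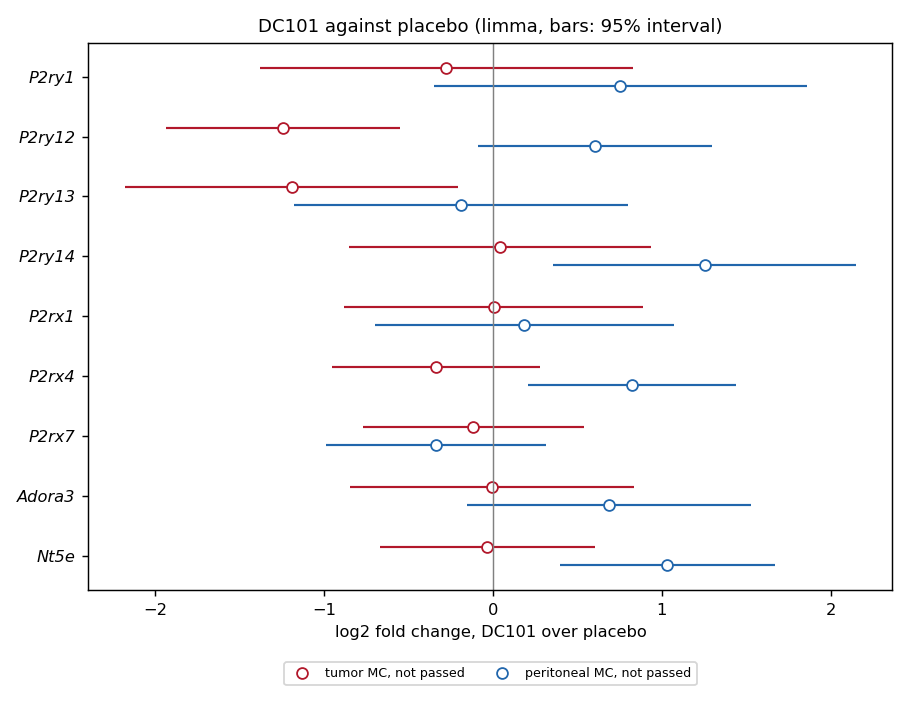
Log2 fold change of DC101 over placebo (horizontal axis) for each member in tumor MC (red) and peritoneal MC (blue), with 95% intervals from limma. All symbols are open, since 0 of 9 members passed an adjusted p under 0.05 in either compartment.

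The difference between the DC101 responses of tumor and peritoneal MC was tested as an interaction. None of the 9 members passed, 0 in either direction, against 0.353% of all clusters called higher and 0.452% called lower. The median interaction value of the 9 members was −1.03, beside −0.01 over all clusters. P2ry12 had the largest difference, −1.85 ± 0.43 (95% interval −2.83 to −0.87, unadjusted p = 0.00208, adjusted p = 0.0973), with responses of −1.24 (tumor) and 0.60 (peritoneum). P2ry14 (−1.21 ± 0.56, adjusted p = 0.405), P2rx4 (−1.16 ± 0.38, adjusted p = 0.228) and Nt5e (−1.07 ± 0.40, adjusted p = 0.288) followed in size. The 9 interaction values ran from −1.85 to 0.22, and P2rx7 alone was positive. Each compartment comparison shares its arrays with the DC101 comparisons, so these values are not separate evidence.

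Levels of other cell types moved with several of these comparisons. Of 9 macrophage markers, 7 fell and 2 rose in tumor MC against peritoneal MC after DC101, and 3 fell and 1 rose after placebo. Their mean was 7.33 and 7.62 (tumor DC101), 7.85 and 8.08 (tumor placebo), 8.70 and 9.11 (peritoneal DC101) and 8.61 and 8.35 (peritoneal placebo). Adgre1, which encodes the macrophage marker F4/80, fell by 3.98 after DC101 (adjusted p = 7.16e-06) and by 2.14 after placebo (adjusted p = 0.000244), whereas Fcgr1 rose by 2.98 after DC101 (adjusted p = 0.000291) and Cx3cr1 by 1.69 and 1.03 (adjusted p = 0.00091 and 0.0145). None of the macrophage markers was near the bottom of the scale in tumor MC, where they lay between 4.94 and 10.71. P2rx4, P2rx7, P2ry12, P2ry13 and P2ry14 are known from macrophages or microglia as well as MC. The part of macrophage RNA in the compartment differences was not tested.

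Eosinophil markers averaged 2.45 and 2.55 in tumor MC after DC101, 2.42 and 2.21 in tumor MC after placebo, 5.54 and 5.29 in peritoneal MC after DC101, and 3.71 and 3.78 in peritoneal MC after placebo. Of these 5 genes, 3 rose with DC101 in peritoneal MC, where Ccr3 had a log2 fold change of 3.82 (adjusted p = 0.000548), Siglecf one of 3.51 (adjusted p = 0.00286) and Prg2 one of 1.11 (adjusted p = 0.0484). Epx, the peroxidase of eosinophil granules, lay between 1.59 and 2.59 on all arrays. Macrophage markers went both ways with DC101 in peritoneal MC, where 2 of 9 rose, Mrc1 (2.76, adjusted p = 0.00306) and C1qa (1.11, adjusted p = 0.0458), and 1 fell, Fcgr1 (−2.64, adjusted p = 0.0055). In the same comparison 7 of 8 T and NK cell markers fell, among them Il2rb (−2.88, adjusted p = 0.00407), as did 2 of 5 B cell markers, Cd22 (−1.76, adjusted p = 0.00828) and Blk (−2.03, adjusted p = 0.0164). Of 3 basophil markers 1 fell, Mcpt8 (−2.60, adjusted p = 0.00286), and the other basophil markers, Prss34 (−0.09) and Cd200r3 (−0.39), did not pass. The study treats Mcpt8 as an MC protease gene and reports it as deregulated by DC101 in both compartments. Whether its signal here came from MC or basophils was not tested. Of 4 mesothelial markers 1 fell, Msln (−1.97, adjusted p = 0.00492), and of 5 neutrophil markers 1 rose, Retnlg (2.08, adjusted p = 0.0234). P2ry14 and Nt5e were highest in this same group, and whether cells other than MC contributed to their values was not tested.

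Of 5 B cell markers, all 5 fell in tumor MC against peritoneal MC in both conditions, with means of 2.75 to 3.43 on the tumor arrays and 7.26 to 8.84 on the peritoneal arrays. Platelet and megakaryocyte markers, of interest because P2ry1, P2ry12 and P2rx1 are platelet receptors, fell for 3 of 7 genes in both conditions. Their mean was between 3.71 and 4.20 on tumor arrays and between 4.61 and 5.45 on peritoneal arrays. Gp6, the collagen receptor of platelets, stayed between 2.24 and 3.12 on all arrays, below the median cluster, whereas Pf4, which macrophages also transcribe, was between 6.11 and 10.26. Gp9 lay between 1.77 and 3.08 on tumor arrays and between 3.68 and 5.59 on peritoneal arrays. Ppbp lay between 3.03 and 3.76 on tumor arrays and between 5.28 and 7.11 on peritoneal arrays. Of the 7 differences, 2 were positive after DC101 and 1 after placebo. The part of platelet RNA in the values of P2ry1, P2ry12 and P2rx1 was not tested. T and NK cell markers rose for 4 and fell for 1 of 8 after DC101 and fell for 4 after placebo. Neutrophil markers fell for 3 of 5 in both conditions. Dendritic cell markers fell for 1 of 5 after DC101 and for 4 after placebo. Of 3 basophil markers, 2 rose and 1 fell after DC101 and 2 fell after placebo, and 1 of 4 mesothelial markers rose in both conditions. MC markers passed for 2 of 10 genes after DC101, Hdc (1.73, adjusted p = 0.0117) and Gata2 (1.29, adjusted p = 0.0197), both higher in tumor MC, and for 0 after placebo, where 2 had an unadjusted p under 0.05.

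**Figure D4:**
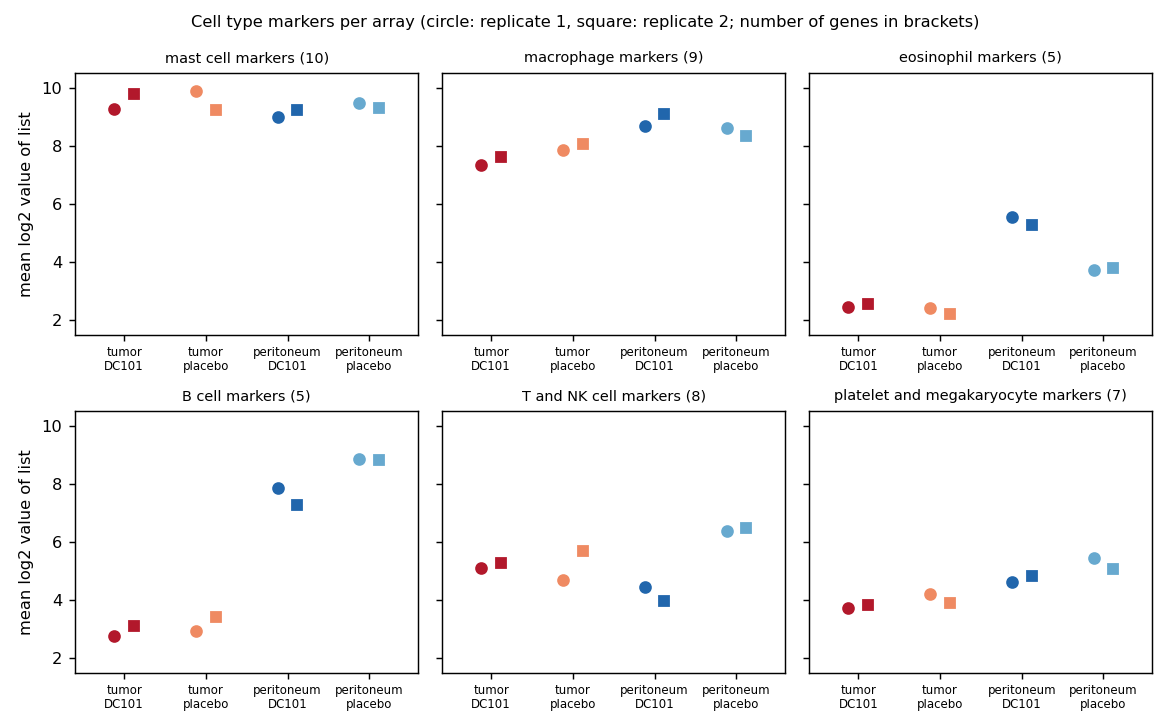
Mean log2 value (vertical axis) of cell type marker lists on each array, by group (horizontal axis), with circles for replicate 1 and squares for replicate 2 and the number of genes in brackets. Mast cell markers stay between 9.0 and 9.90, whereas macrophage, B cell and eosinophil markers are higher on the peritoneal arrays than on the tumor arrays.

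Other genes of the purinergic pathway were counted in 4 lists. Among 7 other purinergic receptors, 1 rose with DC101 in peritoneal MC and 1 fell in tumor against peritoneal MC after DC101, in both cases P2ry6, the receptor for UDP. P2ry6 had 6.25 and 6.10 in tumor MC after DC101, 6.41 and 6.82 in tumor MC after placebo, 7.50 and 8.26 in peritoneal MC after DC101, and 6.74 and 6.53 in peritoneal MC after placebo. The peritoneal arrays after DC101 lay above all others, and the tumor arrays after DC101 lay below all others by a smaller margin. Its log2 fold change was 1.24 ± 0.28 for DC101 in peritoneal MC (adjusted p = 0.0394) and −1.70 ± 0.28 between compartments after DC101 (adjusted p = 0.00208). The peritoneal call was lost under 12 of 17 alternatives, among them each array left out but peritoneal DC101 replicate 1, with an adjusted p of up to 0.189. None of the 7 passed in tumor MC, for the interaction or between compartments after placebo.

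Among 8 other ectoenzymes, 3 fell and 1 rose in tumor against peritoneal MC after DC101, and 2 fell and 1 rose after placebo. Dpp4, which encodes the peptidase CD26, had 4.33 and 3.79 (tumor DC101), 3.22 and 3.46 (tumor placebo), 7.06 and 6.28 (peritoneal DC101) and 6.95 and 7.36 (peritoneal placebo). The compartments were widely apart, with −2.61 ± 0.31 after DC101 (adjusted p = 0.000334) and −3.81 ± 0.31 after placebo (adjusted p = 4.24e-05). Bst1, an NAD-degrading ectoenzyme, fell by 2.25 and by 2.22 (adjusted p = 0.000611 and 0.000766). Ada, which encodes the adenosine deaminase that removes adenosine, fell after DC101 (−1.93 ± 0.51, adjusted p = 0.0239) and lost this call without either tumor DC101 array (adjusted p = 0.151 and 0.0602) or without peritoneal DC101 replicate 1 (−0.996, adjusted p = 0.0712). The arrays of that peritoneal pair were far apart, at 7.59 and 5.72. Acpp, a phosphatase that can also dephosphorylate AMP, rose by 1.11 after DC101 and by 2.06 after placebo (adjusted p = 0.00419 and 0.000147). None of the 8 passed for DC101 in either compartment or for the interaction.

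Among 10 genes of nucleotide release and nucleoside transport, Slc29a3 stood out in the DC101 response. This gene encodes ENT3, a nucleoside transporter of lysosomes. It had 2 clusters, and only the one with the higher mean over the 8 arrays was read. Its values were 6.33 and 6.05 in tumor MC after DC101, 6.49 and 7.09 in tumor MC after placebo, 7.26 and 7.55 in peritoneal MC after DC101, and 6.09 and 6.06 in peritoneal MC after placebo. The DC101 arrays lay below placebo in tumor MC and above placebo in peritoneal MC. It rose with DC101 in peritoneal MC (1.33 ± 0.25, adjusted p = 0.0197), a call that was lost without any 1 of the 4 peritoneal arrays (adjusted p of 0.051 to 0.0976). The responses differed between compartments (−1.93 ± 0.35, adjusted p = 0.048), the 1 call for the interaction in the 4 lists. That call was lost under 13 of 16 alternatives, including each of the 8 arrays left out, with an adjusted p of up to 0.248. Slc28a2, a concentrative nucleoside transporter, fell in tumor against peritoneal MC by 3.26 after DC101 and by 2.03 after placebo (adjusted p = 5.63e-05 and 0.00102). After DC101 Slc29a3 also fell (−1.22, adjusted p = 0.00687) and Slc29a2 rose (0.97, adjusted p = 0.00948). After placebo Slc17a9, the vesicular nucleotide transporter that loads ATP into granules, fell by 1.60 (adjusted p = 0.0195). The call of Slc29a3 was lost without tumor DC101 replicate 2 (adjusted p = 0.0586), and that of Slc29a2 without the same array or peritoneal DC101 replicate 2 (0.0649 and 0.0565). That of Slc17a9 was lost without tumor placebo replicate 2 (adjusted p = 0.129) or either peritoneal placebo array (0.0799 and 0.0828).

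The inflammasome genes downstream of the P2X7 channel did not move one way between compartments. Nlrp3, the sensor, rose in tumor against peritoneal MC by 2.32 after DC101 and by 2.09 after placebo (adjusted p = 0.00108 and 0.00227), and Il1b rose by 1.30 and 1.46 (adjusted p = 0.0363 and 0.0246). The Il1b call after DC101 was lost without either tumor DC101 array (adjusted p = 0.179 and 0.102) or peritoneal DC101 replicate 2 (0.2). After placebo it was lost without either tumor placebo array (0.05 and 0.141) or peritoneal placebo replicate 2 (0.155). Pycard, the adaptor ASC, fell by 1.21 and by 1.84 (adjusted p = 0.00237 and 0.000244). Gsdmd, the pore-forming substrate of caspase-1, fell after DC101 (−1.52, adjusted p = 0.000859) and rose with DC101 in peritoneal MC (1.59 ± 0.21, adjusted p = 0.0059). Its peritoneal arrays were at 7.55 and 7.17 after DC101 and at 5.82 and 5.72 after placebo, so the groups were well apart. In tumor MC 0 of the 6 genes passed for DC101 by limma and 1 had an unadjusted p under 0.05.

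**Figure D5:**
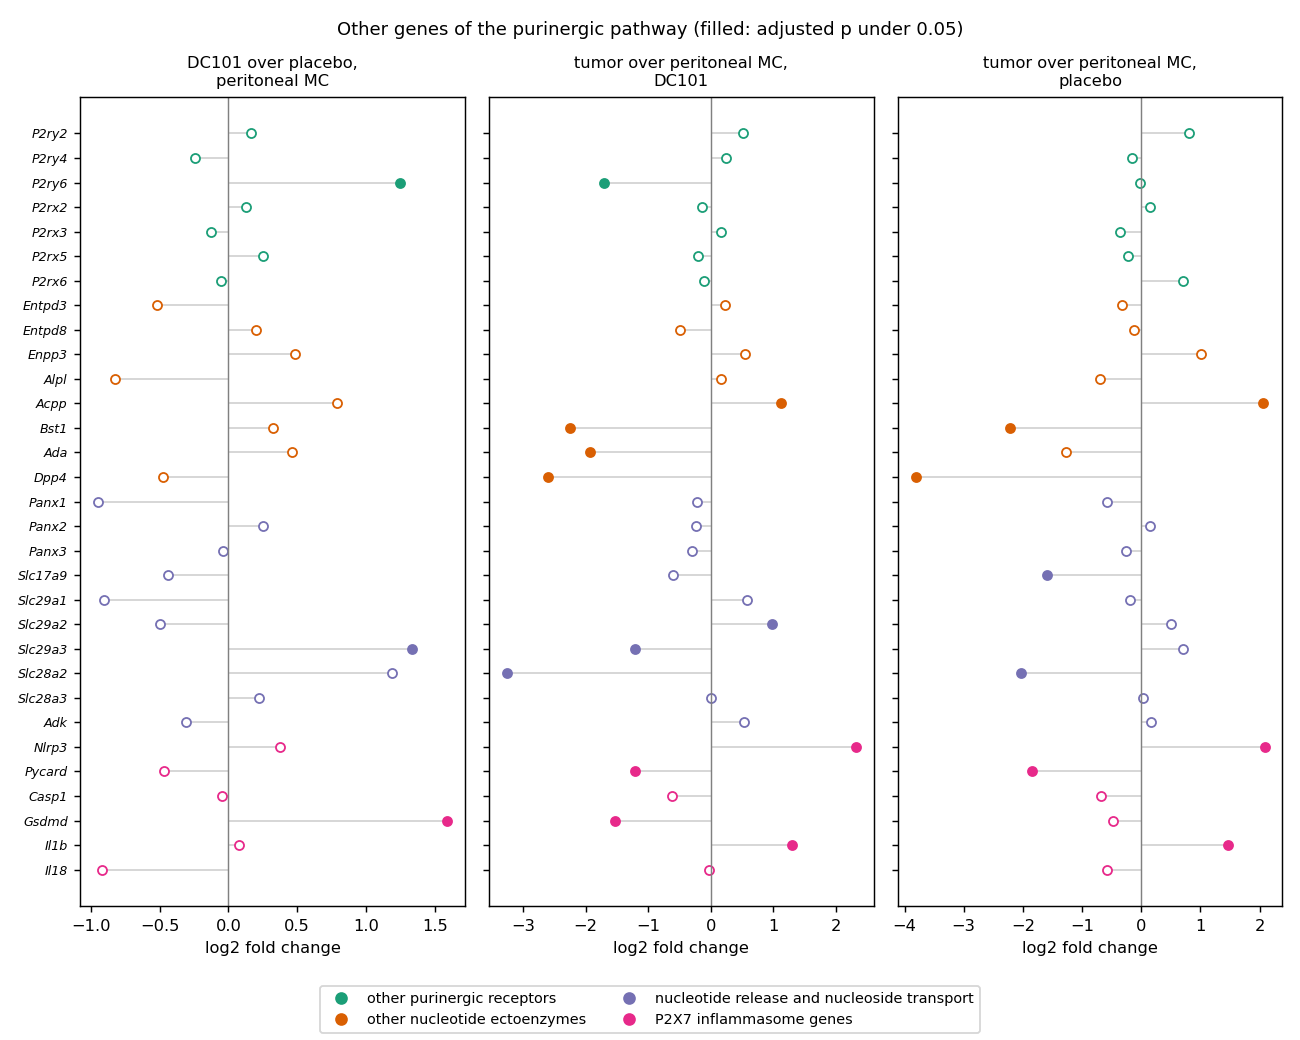
Log2 fold changes (horizontal axes) of 31 other genes of the purinergic pathway, in 4 lists marked by colour, for DC101 over placebo in peritoneal MC and for tumor over peritoneal MC after DC101 and after placebo. Filled symbols passed an adjusted p under 0.05, and Slc28a2, Dpp4, Bst1 and Pycard are filled and negative in both comparisons of compartments, while Nlrp3, Il1b and Acpp are filled and positive.

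The neighbours of the members were read by their order in the RefSeq gene table. F630111L10Rik, a long non-coding RNA gene, overlaps P2ry14 in that table. It averaged 4.58 (tumor DC101), 4.35 (tumor placebo), 7.30 (peritoneal DC101) and 5.66 (peritoneal placebo), the same order of compartments and of peritoneal treatments as P2ry14. F630111L10Rik rose with DC101 in peritoneal MC (1.64, adjusted p = 0.0118) and fell in tumor against peritoneal MC by 2.72 after DC101 and by 1.31 after placebo (adjusted p = 0.000111 and 0.00801). Whether the probes of the cluster named P2ry14 and those of F630111L10Rik read separate transcripts was not tested. Gpr171, next to P2ry14, and Med12l, whose span holds the whole run, passed in none of the 5 comparisons. Their log2 differences lay between −0.27 and 0.69. On chromosome 5, Ift81 before P2rx7 rose in tumor MC (1.56 and 0.82, adjusted p = 0.000921 and 0.0289), while Camkk2 and Anapc5 after P2rx4 passed in none.

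P2ry14 was the only member whose group means spanned at least 2 on the log2 scale, the span set for a search for like profiles. The genes most like it among 10900 genes above the median cluster, by root mean square difference over the 8 arrays after centring, were Fmo5 (0.174), Cd200r1 (0.259) and Fgd4 (0.271). Fmo5 averaged 4.46 (tumor DC101), 4.46 (tumor placebo), 6.93 (peritoneal DC101) and 5.83 (peritoneal placebo), and Cd200r1, an inhibitory receptor of myeloid cells, 5.03, 4.94, 7.63 and 6.28 in the same order of groups. These profiles share all their arrays, and the likeness is a description.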

How the data were processed

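RNA of sorted MC was measured on Affymetrix Mouse Gene 2.1 arrays, 2 per group in 4 groups. The deposited log2 values were made by the authors from the array image files in R with Bioconductor. The submitters' processing notes name RMA. For its version, options and genome build nothing is given in the sources used here. RMA corrects background, equalises the distributions of the arrays and summarises probes per cluster. It therefore removes any shift that all genes share and gives no detection call. Of 24111 clusters, 21508 had 1 symbol in the platform annotation, 566 several and 2037 none, and symbols can be old.

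From these values, 5 contrasts were fitted with limma 3.58.1 in R 4.3.3, with 1 mean per group, 4 residual degrees of freedom, a prior that added 4.93 and Benjamini-Hochberg adjustment over all clusters. The nested F-test took both DC101 contrasts together, at adjusted p under 0.05 with an absolute difference of at least 1. A sample's group came from the labels, and no array was left out. Members and lists were chosen with earlier results of these data known. Genes outside the members were to be named where they passed adjusted p, up to 6 per list and comparison in order of size. For marker lists, only part of these genes is named, beside the counts of each list. Others were named by position or by likeness to P2ry14, and markers also where they define a cell type. The genes between the members or beside P2rx7 and P2rx4 lie outside that rule. Scripts were tested on simulated data. Alternatives were an intensity trend, no moderation, array weights, cyclic loess, fewer clusters, 1 compartment alone, a replicate block and each array left out. A crossed block was added after seeing the data. Python 3.11.15 with matplotlib 3.10.9 drew the figures.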

Additional observations from a re-analysis of the deposited data

Results flagged for a closer look

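The DC101 response differed between tumor and peritoneal MC by the interaction test of limma for 8 genes of the lists, none of them a purinergic receptor or ectoenzyme of the list. Over all clusters, 0.353% were called higher and 0.452% lower, and 0 passed without moderation of the spread. Slc29a3, which encodes the lysosomal nucleoside transporter ENT3, differed by −1.93 (adjusted p = 0.048), with responses of −0.60 (tumor) and 1.33 (peritoneum). This call was lost under 13 of 16 alternatives. The marker genes below were not followed singly under the other alternatives. Of 9 macrophage markers 2 passed, Adgre1 and Mrc1, which differed by −1.83 (adjusted p = 0.0475) and −3.68 (adjusted p = 0.0122). Of 5 eosinophil markers 2 passed, Ccr3 and Siglecf, which differed by −3.61 (adjusted p = 0.0114) and −3.75 (adjusted p = 0.0266). In the other direction, 1 of 3 basophil markers passed, Mcpt8, which the study treats as an MC protease gene. It differed by 4.31 (adjusted p = 0.00521). Of 8 T and NK cell markers 2 passed, Ncr1 and Il2rb, which differed by 3.21 (adjusted p = 0.0122) and 2.74 (adjusted p = 0.0478).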

How the results depend on the processing

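The number of members that fell in tumor MC was 6 after DC101, and 1 without moderation of the spread, 7 among clusters above the median (Nt5e added) and 3 to 6 with 1 array left out. After placebo it was 2, and 4 with an intensity trend or cyclic loess, 0 without moderation and 1 to 3 with 1 array left out. For DC101 in peritoneal MC, the number of members that passed was 0, and 1 among clusters above the median, Nt5e, which rose. With 1 array left out, the log2 fold change of Nt5e there lay between 0.66 and 1.40. At the study's thresholds, the count of 2 became 1 without moderation in both compartments, and 1 to 3 (tumor) and 1 to 2 (peritoneum) with 1 array left out. The cause of these shifts was not tested. In tumor MC, Adora3 was at −0.0065 as deposited and 0.0143 after cyclic loess.

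With 1 array left out, the DC101 log2 fold change in tumor MC changed sign for P2ry1 (−1.04 to 0.48), P2ry14 (−0.52 to 0.60), P2rx1 (−0.51 to 0.52), P2rx7 (−0.49 to 0.25), Adora3 (−0.57 to 0.55) and Nt5e (−0.25 to 0.18), in peritoneal MC for P2ry13 (−0.67 to 0.29) and P2rx1 (−0.16 to 0.53), and for the interaction for P2rx1 (−0.70 to 0.34) and P2rx7 (−0.15 to 0.59). Between compartments it changed for P2ry13 after DC101 (−0.81 to 0.27) and P2ry1 after placebo (−0.26 to 1.26). None of these values had passed the test.

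Over all clusters, the study's thresholds gave 164 in tumor MC and ranged from 87 (no moderation) to 416 (without tumor placebo replicate 2). The count at adjusted p was 1105 in peritoneal MC, 33 without moderation, 453 with that compartment alone and 311 to 906 with 1 array left out. For the interaction it was 194, 0 without moderation, 463 with an intensity trend, 346 above the median cluster and 22 to 187 with 1 array left out. Between compartments it was 5292 after DC101 and 4723 after placebo, and 3357 and 2716 without moderation.

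Same-numbered arrays did not deviate together (correlation −0.17 between tumor placebo and tumor DC101, −0.01 in peritoneum), so the numbers were not taken to pair arrays. With the replicate number as a block, the interaction count was 113, and P2ry12 (adjusted p = 0.0523) and Adora3 (adjusted p = 0.0537) lost their call between compartments after DC101. With the numbers of tumor placebo crossed, 6 members passed after DC101 and 3 after placebo. The mean over several clusters gave no value, as no member had more than 1.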

Other observations

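In both tumor groups and in peritoneal placebo, most members were higher on the array where MC markers were higher. The mean of the 10 MC markers was higher by 0.53 on replicate 2 than on replicate 1 of tumor DC101, and 8 of 9 members were higher on that array, all but P2ry13. It was higher by 0.65 on replicate 1 of tumor placebo, where 7 of 9 members were higher, all but P2ry12 and Nt5e. Of all clusters, 50.4% and 49.5% were higher on these arrays. In peritoneal MC the gaps in MC markers were 0.22 (DC101) and 0.20 (placebo), and 5 and 7 of 9 members were higher on the array with the higher mean. Of all clusters, 51.3% and 49.8% were higher there. Macrophage markers were higher on replicate 2 in both tumor groups, where 8 of 9 members were higher after DC101 and 2 of 9 after placebo. In peritoneal MC, macrophage markers were higher on the same arrays as MC markers, so their member counts were the same. With 2 arrays per group this is a description, and its part in the spread of the members was not tested.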
